A study of Mus musculus with 24 samples.

Results

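The genes described here are those of the cytosolic ribosomal proteins, the protein subunits of the ribosome that works in the cytoplasm. Members were taken from the annotation of the array as the genes whose symbol is Rpl or Rps followed by a number, together with Rplp0, Rplp2 and the like, and Rpsa, paralogs included and kinases and pseudogene symbols left out. This gave 61 of the 19920 genes measured at gene level, 38 of the large subunit and 23 of the small subunit. Of the 61 genes 7 were paralogs of another member or close copies by name (Rpl3l, Rpl7l1, Rpl10l, Rpl32l, Rpl39l, Rps4l and Rps27l). A gene was represented by 1 transcript cluster, the unit of the array that stands for a gene, and of several clusters with its symbol the brightest on average was taken. The 61 members had 217 clusters in all, from 1 for 22 members up to 14 for Rps12, and 12 of these clusters repeated the values of another cluster of the same gene. A further 18 ribosomal protein genes, among them Rpl3, Rpl13a, Rpl39 and Rps24, were only on clusters shared with another gene and are therefore not members; 13 of them could be read from exon-level probe sets. Some other genes of this family were not analysed here.

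Values came from 12 RNA samples hybridized to Affymetrix mouse gene arrays, 2 in each of 6 groups. Mouse embryonic stem cells were followed in culture as undifferentiated ES cells (ES, day 0), as embryonic bodies (EB, day 7) and as cardiac bodies (CB, day 14), in a DMEM-based medium with 10% serum that leads to cardiomyocytes. The remaining samples were hearts, taken whole, from E17.5 embryos, from P1 pups, that is 1 day after birth, and from adults whose age in weeks is not given in the sources used here; no genotype, strain or treatment is given for any group. The series asks how expression and splicing change as hearts develop and as cardiomyocytes form in culture. Where nothing says that the replicates were separate cultures or animals, p-values measure the spread between these samples only, which may be technical.

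All values are log2 signals, so a difference of 1 is a doubling, and a change is 1 group mean minus another ± its standard error in limma. The number of arrays, 2 a group, limits the precision. A gene was called higher or lower at an adjusted p under 0.05 in limma, after Benjamini-Hochberg adjustment over all 19920 genes of a comparison. Signals of different genes are not set against each other, because probes differ in brightness. Signals were not tested against background, so the size of a change from or to a low signal may be a lower limit, and such changes are given without a fold. In bulk RNA of whole hearts and mixed cultures, fewer cells of a type and less RNA per cell cannot be told apart. Markers were checked against the labels: the 6 pluripotency markers had a median of 11.03 and 11.21 on the ES arrays and of 4.72 to 4.88 on the heart arrays, and the 8 cardiomyocyte markers had medians of 12.09 to 12.67 on the heart arrays. In cardiac bodies both lists were present, with medians of 10.20 and 10.68 for pluripotency and 10.43 and 10.13 for cardiomyocytes.

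A eukaryotic ribosome joins a small subunit, which reads the mRNA, to a large subunit, which forms peptide bonds, and each protein of a subunit is present as a single copy except for the stalk proteins. Ribosomal protein mRNAs are among the most abundant of growing cells. They share a run of pyrimidines at the 5′ end, the terminal oligopyrimidine tract, through which mTOR signalling and the RNA-binding protein Larp1 control their translation together. Some tissues also make paralogs that can take the place of a standard subunit protein; Rpl3l in striated muscle and Rpl10l and Rpl39l in the testis are the best-known examples.

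Pyrimidine runs near the annotated start and a promoter motif were looked for in the RefSeq sequences around the start sites (assembly GRCm38.p6). These held 49 of the 61 members. A run of at least 7 pyrimidines was searched on the strand of the gene, between 10 bases before and 15 bases after the start. It was found at 1 or more annotated starts in 21 of the 49 members (42.9%), against 4730 of 27025 genes. A counted run may lie wholly before the start, as in Rpl39l, or inside the transcript, as in Rps12. The count is therefore not a count of terminal oligopyrimidine tracts. The motif CGGAAG, the core letters recognised by ETS-family factors, was searched on both strands from 250 bases before to 50 bases after the start. It was present in 33 of the 49 members (67.3%), against 18.8% of 27025 genes. The 2 features can overlap, since the reverse complement of the motif begins with pyrimidines, and a match describes letters and not a site in use. The windows below are shown because they hold a pyrimidine run or lack it. Rps6 and Rpl28 were higher in adult than in E17.5 hearts, and Rps18 and Rpl27a were lower. Rpl10l, Rpl39l and Rpl3l are the paralogs with the largest changes. Each window runs 5′ to 3′ on the strand of the gene, starts 10 bases before the annotated start and is 30 bases long. Capitals mark the longest pyrimidine run of at least 7 bases within the searched part, which ends 15 bases after the start. In Rpl27a the run goes on past that end, so its capitals stop short of the whole run.
Rps6: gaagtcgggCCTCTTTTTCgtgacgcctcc
Rpl28: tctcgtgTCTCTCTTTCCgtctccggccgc
Rps18: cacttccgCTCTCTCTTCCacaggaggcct
Rpl27a: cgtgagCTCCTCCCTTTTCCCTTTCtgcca
Rpl10l: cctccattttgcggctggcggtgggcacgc
Rpl39l: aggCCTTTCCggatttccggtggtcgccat
Rpl3l: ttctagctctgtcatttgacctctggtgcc
They lie at chr4:86857348-86857377 (minus strand) for Rps6, chr7:4792955-4792984 (plus) for Rpl28, chr17:33955646-33955675 (minus) for Rps18, chr7:109519185-109519214 (plus) for Rpl27a, chr12:66284382-66284411 (minus) for Rpl10l, chr16:10170218-10170247 (plus) for Rpl39l and chr17:24727816-24727845 (plus) for the first of the Rpl3l starts. The runs of Rps6, Rpl28, Rps18 and Rpl27a span the start site itself, while that of Rpl39l ends before it. Rpl10l and Rpl3l show no run of 7 in these windows. Members with a run of at least 7 moved both ways between E17.5 and adult hearts. Among members that have a RefSeq sequence, such a run was present in 4 of the 8 higher, 8 of the 25 lower and 9 of the 16 not called.

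Across the 6 groups the ribosomal protein genes formed a slope from ES cells to the adult heart. The median over the 61 members was 11.51 and 11.47 on the ES arrays, 11.31 and 11.53 in EB, 11.18 and 11.33 in CB, 10.84 and 10.63 at E17.5, 10.36 and 10.94 at P1, and 9.34 and 9.48 in adults. The adult arrays lay below all others, and the arrays of neighbouring groups overlapped from ES to EB, from EB to CB and from E17.5 to P1. ES cells were the highest group for 40 of the 61 members, against 21.4% of all genes, and EB for 14, against 16.7%. Adult hearts were the lowest group for 44 members, against 25.4% of all genes, and the highest for 6, against 33.2%. The median over all 19920 genes stayed between 5.93 and 6.18 on the 12 arrays.

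**Figure D1:**
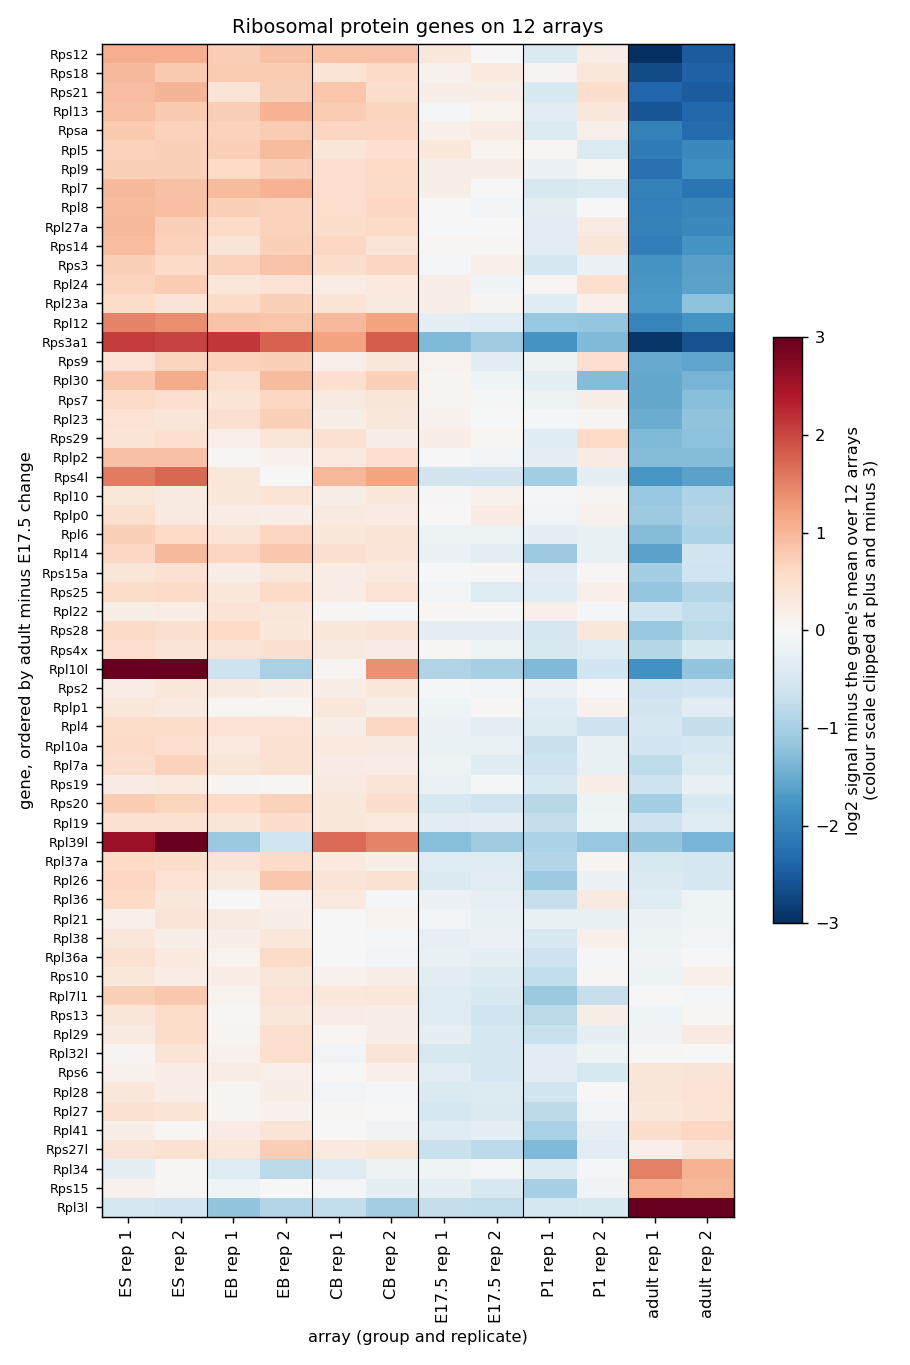
Log2 signal of each of the 61 ribosomal protein genes (vertical axis, ordered by the adult minus E17.5 change) on the 12 arrays (horizontal axis), as the difference from the mean of the gene over all arrays; red is above and blue below that mean, with the colours clipped at -3 and 3. Most genes turn blue in the 2 adult columns, while Rpl3l, Rps15 and Rpl34 at the bottom turn red there, and Rpl10l and Rpl39l are red in ES cells.

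Most members followed 1 profile. Over the 12 arrays, which share their groups and replicates, 41 of the 61 members had a Pearson correlation above 0.8 with the median profile, to which each contributes a small part, and 6 had one below 0. This count was not taken over all genes, so it is not shown to be particular to ribosomal proteins. Rpl8 (r = 0.99), Rpl27a (0.99), Rps25 (0.99) and Rps7 (0.99) followed the median profile most closely. The 6 with a correlation below 0 were Rpl3l (-0.89), Rpl34 (-0.85), Rps15 (-0.53), Rpl41 (-0.19), Rps6 (-0.12) and Rpl28 (-0.11), which are described with the adult hearts. The values of Rpl41, Rps6 and Rpl28 are near 0. Their means fell from ES to E17.5, from 11.95 to 11.51, 12.64 to 12.06 and 12.30 to 11.61, and were highest in adults.

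**Figure D2:**
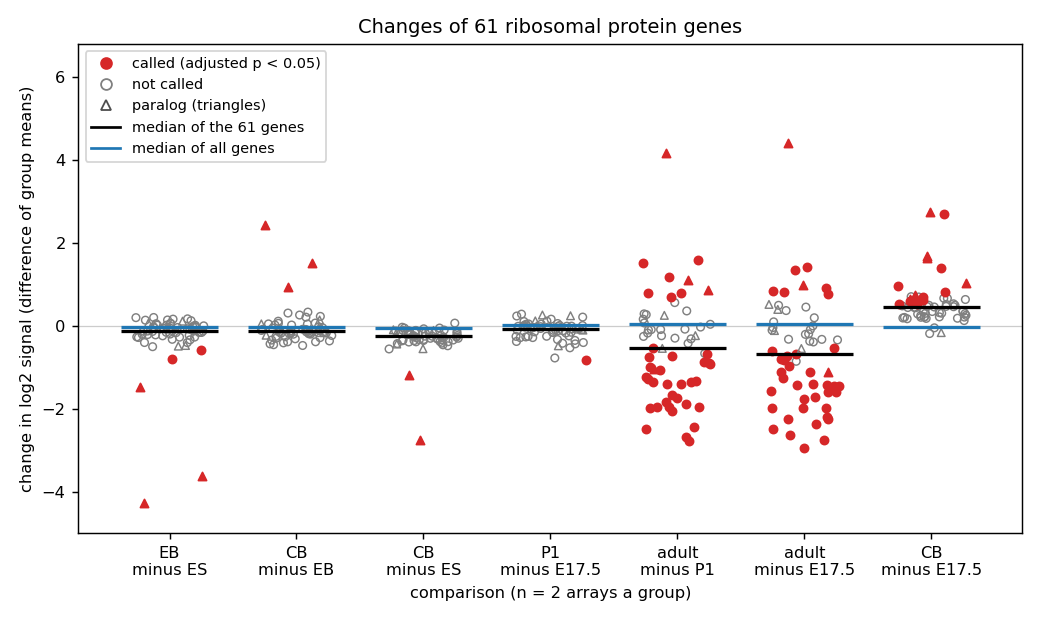
Change of the 61 ribosomal protein genes (vertical axis, difference of group means in log2 signal) in the 7 comparisons (horizontal axis), with filled red symbols for genes called at an adjusted p under 0.05, open symbols for the rest and triangles for paralogs; black lines are medians of the 61 genes and blue lines those of all genes. The median is -0.67 in adult against E17.5 hearts and 0.47 in cardiac bodies against E17.5 hearts, while the large changes in culture are those of 3 paralogs.

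In culture, the standard ribosomal proteins kept nearly level signals while 3 paralogs fell and returned. Between ES cells and embryonic bodies, a comparison that asks what changes as ES cells leave the undifferentiated state, 5 of the 61 members were lower and 0 higher. Over all genes 8.61% were called lower and 12% higher, so the count of members called lower was near the background. The median change was -0.12, and 8 members had an unadjusted p under 0.05. Of the 54 members that are not paralogs, 52 were called in no comparison among the cultures. The exceptions were Rpl12 and Rplp2. Most genes were not called there either: of all 19920, 15816 in EB against ES, 17555 in CB against EB and 17968 in CB against ES. The share of all genes called in none of these comparisons was not counted.

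Rpl10l, an intronless copy of the X-linked Rpl10 that is known from the testis, had log2 signals of 9.92 and 10.21 in ES cells, 5.97 and 5.63 in EB and 6.67 and 7.97 in CB. It fell by 4.26 ± 0.37 from ES to EB (adjusted p = 7.22e-06), rose by 1.52 ± 0.37 from EB to CB (adjusted p = 0.0189) and was still lower in CB than in ES cells, by -2.74 ± 0.37. The CB arrays were 1.3 apart, the widest gap of a group in culture for this gene, and both lay between ES and EB. In hearts its signals were 4.79 to 6.01. Its parent Rpl10, a large-subunit protein added late in assembly, stayed at 13.21 to 13.44 on all 6 culture arrays.

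Rpl39l, the male germ cell copy of the tunnel protein Rpl39, had the same course. Its signals were 7.04 and 7.44 in ES cells, 3.36 and 3.88 in EB and 6.17 and 5.96 in CB, with no overlap between any pair of these groups. The fall from ES to EB was -3.62 ± 0.22 (adjusted p = 4.58e-07), and the rise from EB to CB was 2.44 ± 0.22 (adjusted p = 1.41e-05). CB remained 1.18 below ES cells (change -1.18 ± 0.22, adjusted p = 0.00375). As the median of exon-level probe sets the rise was 1.68 and the difference from ES cells -1.32, neither called (adjusted p = 0.0515 and 0.144 in limma). On the heart arrays it read 3.09 to 3.53, the range of the EB arrays and below. The exon-level median of Rpl39 was 11.04 to 11.66 on the culture arrays and was not called in any culture comparison.

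Rps4l, a copy of the X-linked small-subunit gene Rps4x, was the other paralog of this kind. It had signals of 10.08 and 10.25 in ES cells, 8.86 and 8.51 in EB and 9.52 and 9.70 in CB, and it changed by -1.48 ± 0.23 (adjusted p = 0.000548) and then by 0.93 ± 0.23 (adjusted p = 0.0194); the exon-level median of the rise was 0.66 and was not called. Rps4x itself stayed between 10.87 and 11.14 in culture. The pluripotency markers moved in step with these paralogs, with medians of 8.17 and 8.42 in EB and 10.20 and 10.68 in CB, and all 6 of 6 were called lower in EB than in ES and higher in CB than in EB. Some lists of other cell types moved the opposite way. Higher in EB than in ES were 4 of 6 fibroblast and 4 of 5 endothelial markers (1 lower). So were 2 of 4 epithelial markers and all 3 red cell markers measured of 6 listed. From EB to CB 1 of 6, 4 of 5 (1 higher), 3 of 4 and 2 of 3 of these were lower. The 2 EB arrays differed, with medians of 11.32 and 5.88 for red cells and 8.56 and 6.58 for fibroblasts. Skeletal muscle markers went the way of the paralogs, with 2 of 8 lower in EB than in ES and 3 of 8 higher in CB than in EB. Cardiomyocyte markers rose at both steps, with 3 of 8 and then 7 of 8 higher. Of the macrophage markers 1 of 4 was lower in EB than in ES. The part of these markers in the result was not tested.

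**Figure D3:**
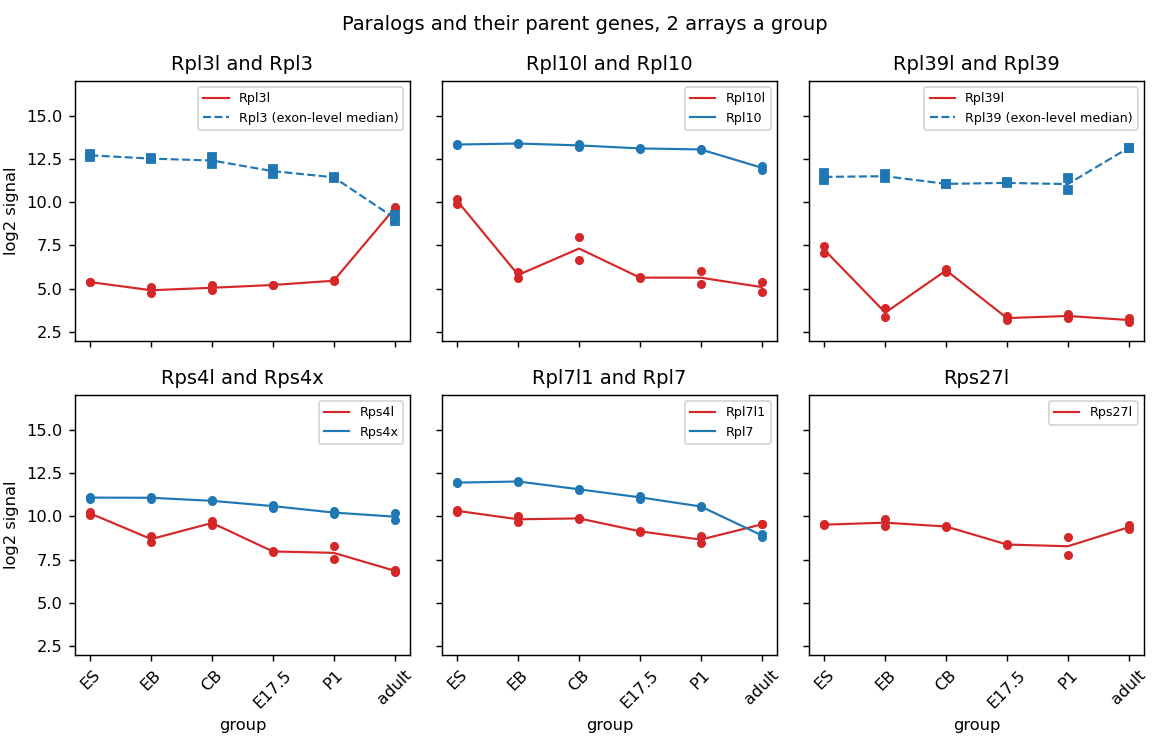
Log2 signal (vertical axis) of paralogs in red and of the gene each is named after in blue, in the 6 groups (horizontal axis), with a point for each of the 2 arrays and lines through the group means; squares and dashed lines are medians of exon-level probe sets. Rpl10l, Rpl39l and Rps4l dip in EB and rise in CB, and Rpl3l is up in adults where Rpl3 is down; heights of different genes are not comparable because their probes differ.

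Rpl12 and Rplp2, both part of the stalk region of the large subunit where elongation factors dock, were lower in EB. Rplp2 had 7.61 and 7.60 in ES cells against 6.78 and 6.85 in EB, a change of -0.79 ± 0.19 (adjusted p = 0.00962), and 7.02 and 7.23 in CB. Rpl12 had 8.68 and 8.58 against 8.05 and 8.04, a change of -0.59 ± 0.16 (adjusted p = 0.0216). Neither was called at exon level (adjusted p = 0.063 and 0.0685 in limma). Their partners in the stalk were not called: Rplp0 changed by -0.16 ± 0.17 and Rplp1 by -0.26 ± 0.19. Without ES replicate 1, ES replicate 2 or EB replicate 1 the count of members called lower was 3 in place of 5.

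From embryonic to cardiac bodies, the step in which heart muscle genes come on, 3 members were higher and 0 lower. The background was 5.45% higher and 6.43% lower. The 3 were Rpl39l, Rpl10l and Rps4l, while 5 members had an unadjusted p under 0.05, and the count was 1 without EB replicate 2 or CB replicate 2. The median change of the other members was -0.13 over the 54 that are not paralogs. Over the whole culture, cardiac bodies against ES cells, 2 members were lower (Rpl10l and Rpl39l) and 0 higher, with a background of 3.61% lower and 6.19% higher. Here 60 of the 61 members had a change below 0, against 11287 of all 19920 genes. Only Rps19 was above, at 0.07 ± 0.22. These shifts were small, with a median of -0.25, and 10 members had an unadjusted p under 0.05. Without ES replicate 2 only 1 member was called.

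Related lists of the translation machinery were followed in culture as well. In EB against ES 8.61% of all genes were lower and 12% higher, and 10678 of all 19920 changes were below 0. Of 35 measured ribosome biogenesis factors, which process ribosomal RNA and assemble subunits, 16 were lower (45.7%) and 0 higher, with a median of -0.63 and 35 of 35 changes below 0. Rrp9, a protein of the U3 particle that cuts pre-ribosomal RNA, changed by -1.54 ± 0.22 (adjusted p = 0.000314), Tcof1, a cofactor of RNA polymerase I, by -1.43 ± 0.20, and Polr1b, a subunit of that polymerase, by -1.31 ± 0.19. Among 77 mitochondrial ribosomal proteins 15 were lower (19.5%) and 0 higher, with a median of -0.36. Mrps12 changed by -1.06 ± 0.27, Mrps18b by -1.02 ± 0.24 and Mrpl47 by -0.93 ± 0.20. Of 18 translation factors and related genes 1 was lower (5.56%, under the share of all genes), Eif3k, at -0.85 ± 0.26. Among 13 growth regulators of ribosome synthesis, Myc changed by -1.03 ± 0.25 and Mycn by -0.88 ± 0.18, both lower, and Tsc1, an inhibitor of mTOR signalling, by 0.80 ± 0.16, higher. Eef1a2, the elongation factor of muscle and neurons, had 6.66 and 6.48 in EB and 9.99 and 9.22 in CB and rose by 3.04 ± 0.26 (adjusted p = 1.08e-05). From EB to CB 1 biogenesis factor was higher and 0 lower (Rrn3, 0.76 ± 0.16), where 5.45% of all genes were higher and 6.43% lower. In CB against ES 5 biogenesis factors were lower (14.3%) and 0 higher, led by Rrp9 at -0.94 ± 0.22, where 3.61% of all genes were lower and 6.19% higher.

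**Figure D4:**
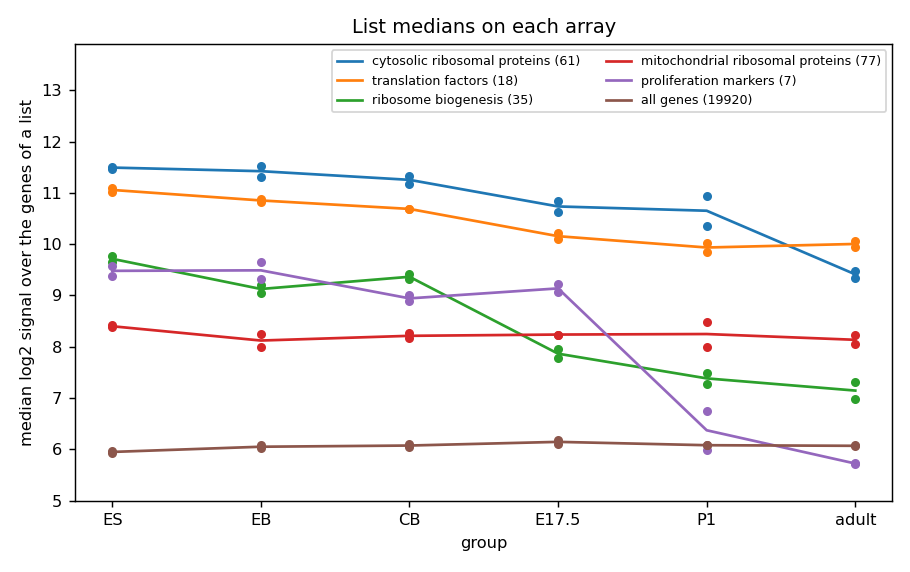
Median log2 signal over the genes of a list (vertical axis) in the 6 groups (horizontal axis), with a point for each array and a line through the means of 2 arrays; list sizes are in the key. The ribosomal protein line steps down between P1 and adults, the line of proliferation markers steps down between E17.5 and P1, and the line of mitochondrial ribosomal proteins stays nearly level.

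Between E17.5 and P1 hearts, the days around birth, the ribosomal proteins hardly moved. Of the 61 members 1 was lower and 0 higher, against a background of 3.05% lower and 2.08% higher, and the median change was -0.07. Unadjusted, 5 members had p under 0.05. The member called was Rpl12, with 6.89 and 6.86 at E17.5 and 6.06 and 6.03 at P1, a change of -0.83 ± 0.16 (adjusted p = 0.0103) that was no longer called without either of the E17.5 arrays. The P1 arrays themselves stood apart from each other: replicate 2 was above replicate 1 in 53 of the 61 members, by a median of 0.51, where the median over all genes was 0.10. Over this step all 7 measured proliferation markers were lower (median -2.58), 5 of the 35 biogenesis factors were lower, led by Dkc1 (-1.78 ± 0.27), Nop58 (-1.49 ± 0.35) and Nop56 (-0.86 ± 0.16), and 0 of 77 mitochondrial ribosomal proteins were called by limma, with 8 at an unadjusted p under 0.05. Nap1l1, a histone chaperone whose mRNA carries a pyrimidine tract, was the translation-list gene that was lower, at -1.62 ± 0.39. Mtor (1.10 ± 0.22) and its partner Rptor (0.96 ± 0.19) were higher.

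The main change of these genes lay between the newborn and the adult heart. Of the 61 members 30 were lower and 9 higher in adult than in P1 hearts, where 14.7% of all genes were lower and 15.6% higher. Against E17.5 hearts 32 were lower and 8 higher, where 18% of all genes were lower and 18.1% higher. The medians of the members were -0.54 and -0.67, and those of all genes 0.04 and 0.05. The pair of comparisons shares the adult arrays; 30 members were lower in both and 8 were higher in both. Small-subunit genes were lower more often by count against E17.5, 16 of 23 with a median of -0.82, than large-subunit genes, 16 of 38 with a median of -0.38; the difference between the subunits was not tested. All 7 proliferation markers were lower in adult than in E17.5 hearts, as were 4 of 6 fibroblast markers, of which 1 was higher, and adult medians of the 4 macrophage markers were 7.46 and 7.61 against 5.79 and 5.87 at E17.5; the part of these in the result was not tested.

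Small-subunit genes gave several of the large falls. Rps18, which sits at the head of the small subunit, had 12.24 and 12.41 at E17.5, 12.21 and 12.47 at P1 and 9.44 and 9.70 in adults, a change of -2.75 ± 0.18 against E17.5 (6.75-fold lower, adjusted p = 3.2e-07). Rps21 had 9.68 and 9.65 at E17.5 and 7.09 and 6.98 in adults (-2.63 ± 0.27, adjusted p = 1.03e-05). Rps12 had 10.97 and 10.66 at E17.5 and 7.57 and 8.17 in adults (-2.95 ± 0.24, adjusted p = 2.2e-06), and all of its 14 clusters, which hold 8 distinct sets of values, were lower, by -2.95 to -2.44. In each of these genes both adult arrays were below every other array. The exon-level probe sets did not repeat the fall for Rps12 and Rps18: the median of the 4 probe sets that carry the symbol Rps12 changed by 0.01 and the single probe set of Rps18 by -0.23. Rpsa, the small-subunit protein also known as the laminin receptor precursor, had 11.52 and 11.61 at E17.5 and 9.34 and 9.06 in adults (-2.37 ± 0.20, adjusted p = 2.47e-06), but its exon-level median changed by only -1.13.

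Other small-subunit genes, chosen for their known roles, had smaller changes or were not called. Rps7, mutated in some families with Diamond-Blackfan anaemia, changed by -1.42 ± 0.18 against E17.5 (adjusted p = 5.7e-05), from 11.81 and 11.71 to 10.20 and 10.47. Rps4x changed by -0.61 ± 0.18 (adjusted p = 0.0164) and its copy Rps4l by -1.11 ± 0.23 (adjusted p = 0.00219), which at exon level was -0.63 and not called (adjusted p = 0.265 in limma). Rps19, the gene most often mutated in that anaemia, had 8.19 and 8.35 at E17.5 and 7.74 and 8.17 in adults and was not called (-0.32 ± 0.22, adjusted p = 0.296). Rps10 was not called either, at 0.37 ± 0.23. At exon level Rps24 had 9.51 and 9.36 against 8.26 and 8.68 and was lower (-0.96), and Rps26 had 12.48 and 12.66 against 11.03 and 11.08 and was lower too (-1.52); both are further genes of the same anaemia.

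In the large subunit Rpl13 had 11.02 and 11.19 at E17.5, 10.73 and 11.40 at P1 and 8.51 and 8.73 in adults, and it changed by -2.48 ± 0.22 against E17.5 (adjusted p = 3.73e-06). Its 9 clusters changed by -2.89 to -2.48. Rpl5, which carries the small ribosomal RNA of the large subunit and can bind the p53 regulator Mdm2, had 11.69 and 11.48 at E17.5 and 9.27 and 9.42 in adults (-2.24 ± 0.19, adjusted p = 3.31e-06). At exon level the fall was not called (median -0.83, adjusted p = 0.317 in limma). Rpl7 had 11.20 and 10.99 against 8.99 and 8.82 (-2.19 ± 0.16), and its paralog Rpl7l1, a nucleolar protein, had 9.17 and 9.09 against 9.53 and 9.52 and was not called (0.40 ± 0.19; exon-level median 0.76, adjusted p = 0.0239 in limma), though it was higher in adult than in P1 hearts (0.88 ± 0.19, adjusted p = 0.00353). Rpl10 changed by -1.11 ± 0.16 (adjusted p = 0.000169), and Rpl22, known for its role in T-cell development, by -0.72 ± 0.16 (adjusted p = 0.00307). Rpl38, needed for patterning of the mouse axial skeleton, had 11.21 and 11.27 against 11.30 and 11.38 and was not called.

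The stalk moved unevenly. Rplp0, the base of the stalk, had 12.22 and 12.46 at E17.5 and 11.11 and 11.34 in adults (-1.11 ± 0.17, adjusted p = 0.000297). Rplp2 had 6.73 and 6.64 against 5.44 and 5.44 (-1.25 ± 0.19, adjusted p = 0.000227), and Rpl12 had 6.89 and 6.86 against 5.19 and 5.39 (-1.59 ± 0.16, adjusted p = 1.12e-05). Rplp1 had 12.42 and 12.59 against 12.01 and 12.22 and was not called (-0.39 ± 0.19, adjusted p = 0.145), although its adult arrays lay below the E17.5 arrays. Rpl12 and Rplp2 were also the members other than paralogs that fell in EB.

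Rpl3l, the striated-muscle copy of Rpl3, was the member with the largest rise. It had 5.23 and 5.20 at E17.5, 5.45 and 5.48 at P1 and 9.72 and 9.56 in adults, and 4.75 to 5.41 on the culture arrays, cardiac bodies included. The rise was 4.42 ± 0.18 against E17.5 (adjusted p = 1.65e-08) and 4.18 ± 0.18 against P1 (adjusted p = 3.97e-08). Rpl3, the core protein next to the peptidyl transferase centre, is on a shared cluster; its exon-level median was 11.65 and 11.93 at E17.5, 11.43 and 11.46 at P1 and 8.92 and 9.26 in adults, a change of -2.71 ± 0.23 against E17.5 (adjusted p = 5.19e-06, limma over 20352 genes). The adult arrays were thus the highest for the paralog and the lowest for its parent. Markers of skeletal muscle, another tissue that makes Rpl3l, were low: all 8 were below the array median on the adult arrays, and 0 of 8 were called between adult and E17.5 by limma, with 2 at an unadjusted p under 0.05. Against P1 hearts 1 of the 8 was called higher, Myh4 (0.52 ± 0.17, adjusted p = 0.037 in limma), with means of 4.44 and 4.96; their part in the result was not tested.

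Higher in adults as well were Rps15, a small-subunit protein near the decoding site, and Rpl34. Rps15 had 10.84 and 10.63 at E17.5, 10.12 and 11.01 at P1 and 12.20 and 12.11 in adults (1.42 ± 0.24, adjusted p = 0.000615), and its 3 clusters changed by 1.42 to 1.93. Rpl34 had 6.59 and 6.68, then 6.31 and 6.65, then 8.22 and 7.76 (1.36 ± 0.22, adjusted p = 0.000446). Rps27l, a copy of Rps27 that p53 induces, had 8.42 and 8.32 at E17.5, 7.76 and 8.77 at P1 and 9.25 and 9.48 in adults (1.00 ± 0.27, adjusted p = 0.0116). Rpl41, the shortest ribosomal protein, had 11.47 and 11.56 against 12.37 and 12.47 (0.91 ± 0.22, adjusted p = 0.0055). Rps6, the substrate of S6 kinase, had 12.15 and 11.97 against 12.83 and 12.85 (0.78 ± 0.16, adjusted p = 0.00226), and its 8 clusters changed by 0.78 to 1.00, while its exon-level median of 0.67 was not called (adjusted p = 0.0528 in limma). Rpl27 (0.85 ± 0.21) and Rpl28 (0.81 ± 0.19) made up the rest of the 8. Both are uncertain: the 4 clusters of Rpl27, which hold 3 distinct sets of values, changed by -0.12 to 0.85, with an exon-level median of 0.84, and the 5 clusters of Rpl28 changed by 0.79 to 0.85 while its single exon-level probe set changed by -1.67. In all 8 genes every adult array was above every E17.5 and P1 array.

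Among the 13 genes read at exon level, 7 were lower and 1 higher in adult than in E17.5 hearts, of 20352 genes tested with 3136 lower and 3319 higher. Rpl35 changed by -2.90 ± 0.29 (adjusted p = 1.98e-05 in limma), from 10.54 and 10.38 to 7.45 and 7.67. Rps23, read from a single probe set, changed by -2.34 ± 0.27, from 7.50 and 8.12 to 5.64 and 5.30. Rpl13a, which is also part of an inflammatory translation silencer, changed by -1.62, from 11.89 and 11.87 to 10.09 and 10.44, and Rpl37 by -0.92. Rpl39 was the one that rose, from 11.14 and 11.09 to 13.14 and 13.15 (2.03 ± 0.26, adjusted p = 1e-04), while its paralog Rpl39l stayed at 3.09 to 3.53 on the heart arrays. Rpl36al changed by -0.34 and Rpl35a by -1.06, neither called. Rpl11, the partner of Rpl5, read 1.66 to 4.27 on all 12 arrays and Rpl22l1 3.73 to 4.63, and neither was called in any comparison. Both lay below the exon-level array medians of 6.40 to 6.53, where a missing call says little. Rpl11 and Rpl35a also rest on a single probe set each.

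Clusters of the same gene gave much the same answer in most cases. Of the 38 members with several clusters of distinct values, 34 had all of them on the same side of 0 in adult against E17.5 hearts, with a median spread of 0.27 between the lowest and the highest. The widest spread was that of Rps21, whose 2 clusters changed by -2.63 and -1.01; the 3 clusters of Rpl41 hold identical values and give no such check. Ribosomal protein genes have many processed pseudogenes, and clusters that carry a symbol may lie in such copies; probes in near-identical sequence cannot tell them apart.

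Single probe sets within a gene spread more widely in the adult heart than in culture. The splicing index, by which a probe set changed more or less than its gene, was called at an adjusted p under 0.05 and a size of at least 1. In adult against E17.5 hearts 27 of 91 member probe sets in 13 of 17 genes were called, where 16.5% of all 94259 probe sets were. In cardiac bodies against ES cells 0 of 101 member probe sets in 18 genes were called by limma, with 1 at an unadjusted p under 0.05, where 0.109% of all 91527 were. The probe sets of a gene spread over a median of 2.45 in the first comparison and 0.43 in the second. Some rose while others fell in 12 of 17 genes in the first and in 7 of 18 in the second. Neither the spread nor these counts were taken over all genes, so they are not shown to be particular to ribosomal proteins. Probe sets are tied to a gene by symbol only, so in genes with several clusters a probe set need not lie in the cluster used. Of the 17 genes 6 had a single cluster, and these held 8 of the called probe sets among 34.

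**Figure D5:**
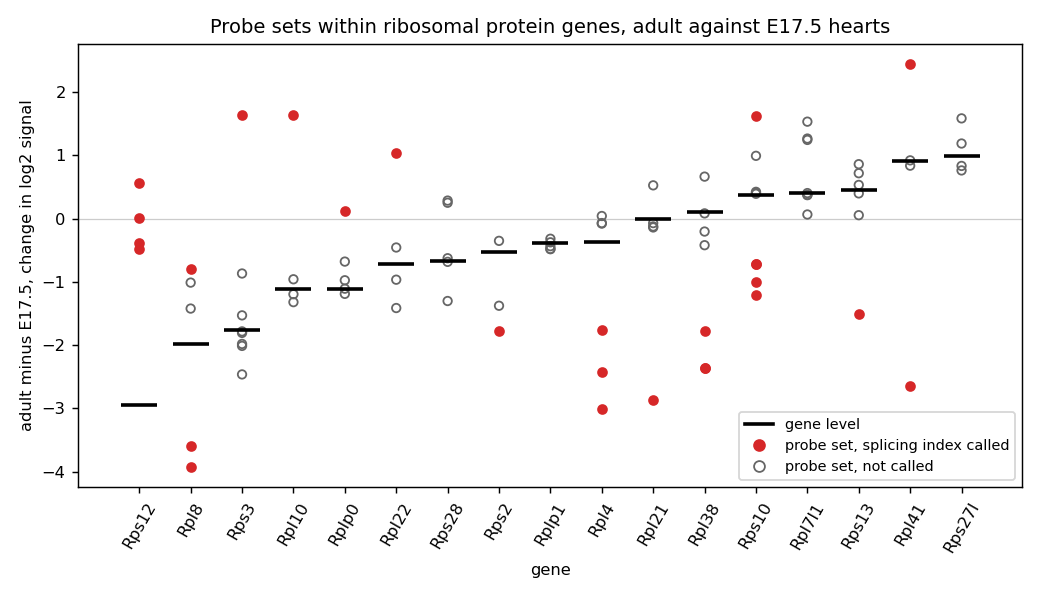
Change in log2 signal between adult and E17.5 hearts (vertical axis) for the probe sets of 17 ribosomal protein genes (horizontal axis, ordered by the gene-level change); black bars are the gene level, filled red points are probe sets whose splicing index was called and open points the rest. In Rpl4, Rpl41 and Rps10 probe sets of the same gene lie more than 2 log2 units apart, and all 4 probe sets of Rps12 lie above the bar of its gene.

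Rpl4, a large-subunit protein with a single cluster, showed such a split within its cluster. At gene level it was not called (-0.37 ± 0.19). The median signal over its 8 probe sets changed by -2.18, while the median of the changes of the 6 tested probe sets was -0.92. Its probe sets 10586158, 10586159 and 10586160 changed by -0.07, 0.04 and -0.08. Its probe sets 10586161, 10586162 and 10586163 changed by -1.76, -3.00 and -2.42, with splicing indices of -1.39 ± 0.24, -2.64 ± 0.30 and -2.05 ± 0.36. Probe set 10586162 had 11.63 and 11.59 at E17.5, 11.54 and 11.20 at P1 and 8.41 and 8.79 in adults, and 12.24 to 12.83 in culture, so that the adult arrays alone were low. Rpl8, also with 1 cluster, had 2 probe sets (10425021 and 10425022) that changed by -3.93 and -3.60 beside 3 that changed by -1.42 to -0.79.

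Rpl41 held the index of largest size. Probe set 10373449 had 11.47 and 11.35 at E17.5, 10.87 and 11.64 at P1 and 8.69 and 8.84 in adults (index -3.55 ± 0.21, adjusted p = 0.00037). Probe set 10373451 of the same gene had 5.58 and 6.35, then 5.85 and 6.90, then 8.35 and 8.46 (index 1.54 ± 0.31, adjusted p = 0.0119), and the other 2 rose with the gene by 0.92 and 0.84. Further large indices were those of Rps12 (10368278, 3.51 ± 0.35), Rps3 (10565810, 3.40 ± 0.72, in the gene of a single cluster that fell by 1.75), Rpl21 (10527537, -2.86 ± 0.35) and Rpl10 (10593321, 2.75 ± 0.64). The called probe sets include 2 pairs with identical values, in Rps10 and Rpl38, which count as 1 measurement each. Where the whole gene was read as the median of its probe sets, 26 of the 29 lower members that had one were lower and 7 of the 8 higher members were higher, whether called or not. The exceptions were Rps12, Rpl23a (0.03 against -1.60 at gene level) and Rpl6 (0.51 against -0.97) among the lower members and Rpl28 among the higher. For Rpl41, counted among the 7, the exon-level median was the gene-level value itself, so it gives no separate check.

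The other lists did not share the pattern of the adult heart evenly. Of 18 translation factors and related genes 9 were lower and 1 higher against E17.5, with a median of -0.46, where 18% of all genes were lower and 18.1% higher. Eef1a1, the general elongation factor, had 13.63 and 13.72 at E17.5, 13.70 and 13.59 at P1 and 11.77 and 12.08 in adults (-1.75 ± 0.16, adjusted p = 5.92e-06), Pabpc1 changed by -1.74 ± 0.22 and Eef1d by -1.46 ± 0.20. Eef1a2 was not called against E17.5 and was lower in adult than in P1 hearts (-0.75 ± 0.26, adjusted p = 0.0464). Of the 35 biogenesis factors 18 were lower and 2 higher, with a median of -0.73; Nop58 changed by -2.85 ± 0.35, Tsr1 by -2.18 ± 0.23 and Pes1 by -2.09 ± 0.19. The 77 mitochondrial ribosomal proteins split about evenly, with 19 lower and 20 higher and a median of -0.09. Mrps26 (-2.94 ± 0.38) and Mrpl2 (-2.12 ± 0.17) were lower and Mrpl34 (2.34 ± 0.29) was higher. Among the 13 growth regulators 4 were higher and 4 lower: Eif4ebp2, a translation inhibitor, changed by 2.05 ± 0.32, Myc by -2.00 ± 0.25 and its partner Max by 1.68 ± 0.20.

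Cardiac bodies were finally set against E17.5 hearts, which asks how far the cultured cells resemble fetal heart. Of the 61 members 16 were higher in cardiac bodies and 0 lower, where 12.1% of all genes were higher and 11.6% lower. The median was 0.47, and 58 of 61 members had a change above 0, against 9416 of all 19920 genes. The count depended on the arrays used: it was 4 without CB replicate 2, 9 without CB replicate 1, 6 and 5 without E17.5 replicate 1 and 2, and 30 without P1 replicate 1 or without P1 replicate 2, which enter only through the shared spread. Cultures and hearts differ in their other cells, with all 6 fibroblast and all 5 endothelial markers lower in cardiac bodies (medians -5.11 and -4.16) and all 6 pluripotency markers higher; their part in the result was not tested.

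Rps3a1, a small-subunit protein, stood out among the standard members. It had 11.51 and 12.11 in cardiac bodies and 8.99 and 9.22 at E17.5, a change of 2.70 ± 0.24 (6.51-fold, adjusted p = 7.58e-06), with 12.07 to 12.41 in ES and EB and 7.37 to 8.97 in P1 and adult hearts. Every culture array was above every heart array by more than 2. Rps3a1 had a single cluster and no exon-level probe set, so its change could not be checked by a second reading. Rpl39l was higher by 2.76 ± 0.22, Rpl10l by 1.68 ± 0.37 and Rps4l by 1.65 ± 0.23 (exon-level median 0.78, not called, adjusted p = 0.22 in limma), the same paralogs that returned from EB to CB. Rpl12 was higher by 1.40 ± 0.16, with 8.16 and 8.39 against 6.89 and 6.86. Among the rest were Rps27l (1.04 ± 0.27), Rps20 (0.96 ± 0.24), Rpl26 (0.81 ± 0.26) and Rpl7l1 (0.75 ± 0.19); Rps20 and Rpl26 were not called at exon level (0.75 and 0.80). Rpl3l was not called (-0.16 ± 0.18).

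In the same comparison all 35 measured biogenesis factors were higher in cardiac bodies, with a median of 1.51, where 12.1% of all genes were higher and 11.6% lower. Heatr1 had 9.71 and 9.78 against 7.58 and 7.47 (2.22 ± 0.24, adjusted p = 3.58e-05), Utp20 was higher by 2.18 ± 0.24 and Gnl3, the nucleolar protein nucleostemin, by 1.93 ± 0.34. Of the 18 translation-list genes 5 were higher and 0 lower, led by Npm1 (1.41 ± 0.26), Eif3l (1.02 ± 0.16) and Eef1b2 (0.95 ± 0.22). Of the 77 mitochondrial ribosomal proteins 7 were higher and 2 lower, with a median of 0.09 and Mrpl20 (2.11 ± 0.36) the largest. Mycn (1.01 ± 0.18) and Max (0.94 ± 0.20) were the 2 growth regulators called, both higher.

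Of the 61 members 13 were called in no comparison: Rpl7a, Rpl10a, Rpl14, Rpl21, Rpl29, Rpl36, Rpl36a, Rpl37a, Rpl38, Rplp1, Rps10, Rps13 and Rps19. The share of all genes called in no comparison was not counted. These 13 are therefore not shown to be more stable than other genes. Rpl29, Rpl36 and Rpl36a are uncertain among the 13. Between E17.5 and adult hearts the exon-level medians of Rpl29 and Rpl36 changed by -0.71 and 0.96 and were called, against 0.50 and -0.04 at gene level. The 2 clusters of Rpl36a changed by 0.20 and 0.21 while its single exon-level probe set changed by -2.07. The adult samples carry later sample numbers than the other groups, and no label says whether they were processed with the rest. A batch that moves with the adult group could not be told apart from the adult changes given above, and was not tested.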

How the data were processed

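RNA of the 12 samples was reduced in ribosomal RNA, amplified and hybridized, per the labels' protocols. The authors deposited log2 signals made by RMA with Affymetrix Power Tools, per the submitters' processing notes; no version, build or annotation release is given in the sources used here. RMA as usually run includes quantile normalization, under which a change shared by most genes cannot be seen. There were 2 deposits a sample, with 35556 transcript clusters at gene level and 241576 probe sets at exon level. Symbols came from the platform annotation, updated through RefSeq; those with no symbol or more than 1 were not used.

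limma 3.58.1 (R 4.3.3) was run at both levels over all 12 arrays with 6 group means (residual degrees of freedom 6, prior 6.18 at gene level), and p-values were adjusted by Benjamini-Hochberg within each of 7 comparisons (2 at exon level). Exon tests used genes with at least 4 probe sets, the gene at or above percentile 50 of its array in both groups and the probe set in 1 or more. The procedure was checked on simulated data. Alternatives were a replicate block, a filter at the median, quantile normalization, median centring, an intensity trend, the mean of all clusters, the exon-level median and each array left out; at exon level the block, no filter on level, the median of the other probe sets and each array left out.

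Members, lists and tests were chosen with earlier results of these data known. Named were the 5 largest rises and falls among called members without overlap, paralogs and their parents, a fixed set of known genes, the 4 members most and least like the median profile, up to 3 called genes of each list and the 6 largest called probe sets; Rpl4, Rpl8 and the further probe sets of these genes, Rps3a1's levels, the genes beyond the largest 5 and the members never called were named after their values were seen.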

Additional observations from a re-analysis of the deposited data

How the results depend on the processing

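Of 8092 repeats of the 427 values of the 61 members under the alternatives, 7843 kept their side of the threshold, among them 254 sign changes of values not called either way, 131 lost a call, 102 gained one and 16 turned. All 16 turned under the exon-level median. Against E17.5 the adult values became 0.034 for Rpl23a, 0.97 for Rpl26, -1.67 for Rpl28, -0.71 for Rpl29, 0.96 for Rpl36, -2.07 for Rpl36a, 0.51 for Rpl6 and 0.013 for Rps12. Against P1 they became 0.018 for Rpl12, 0.30 for Rpl23a, -0.46 for Rpl28, 0.83 for Rpl36, -2.21 for Rpl36a, 0.76 for Rpl6 and 0.32 for Rps12, and Rpl28 became -1.21 in P1 against E17.5. The same alternative gave 1 member higher in CB against EB, 1 lower in CB against ES and 2 lower in P1 against E17.5; the cause was not tested. With 1 array left out, members lower in EB against ES numbered 3 to 6, and the counts ran from 1 to 3 for higher in CB against EB, 1 to 2 for lower in CB against ES, 0 to 2 for lower in P1 against E17.5, and 4 to 30 for higher in CB against E17.5, where the lone array of a group is assumed to vary like the others. Other counts stayed within 1.5 times. The replicate numbers did not pair the samples (15 pairs of groups, correlations of deviations -0.18 to 0.29); with the replicate block 32 members were lower in adult against E17.5. The median change of the members in adult against E17.5 was -0.51 without adult replicate 1 and -0.83 without adult replicate 2, and in CB against ES -0.37 after median centring. Precision is limited by having 2 arrays a group, and signals were not tested against background.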
